A study of Mus musculus with 14 samples.

Results

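The genes described here make cholesterol or set how much of it a cell makes. The list held 8 genes: the synthesis enzymes Hmgcs1, Idi1, Sqle, Lss, Cyp51 and Dhcr7, and the control genes Insig1 and Srebf2. A gene counted as measured when at least 1 array probe set carried its symbol alone, and its value was the mean of such probe sets. By this rule 7 of the 8 were measured, with 1 probe set each, among 22180 genes in all. Idi1, which interconverts the isoprenoid building blocks of the pathway, had only a probe set that also carries a second symbol, so no value is given for it.

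The study asked what loss of the lymphotoxin beta receptor (LTbR, gene Ltbr), a receptor of the tumour necrosis factor receptor family, does to gene expression in atherosclerosis-prone mice. Every mouse lacked ApoE, a lipoprotein component whose loss raises blood cholesterol, and every mouse was a male aged 12 weeks that had eaten a Western type diet, rich in fat and cholesterol, for 4 weeks from the age of 8 weeks. The aorta was taken with its perivascular fat, from 4 ApoE/LTbR-double deficient mice (titled KO) and 4 ApoE-deficient littermate controls (titled WT). Blood cells bearing CD115, a growth factor receptor that marks monocytes, were isolated with magnetic beads and gave 3 double-deficient preparations (replicates 1, 2 and 3) and 3 ApoE-deficient ones (replicates 1, 3 and 4, of which 3 and 4 were pools of littermates). The labels name no promoter, Cre or cell type for either deletion.

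Animal cells build cholesterol from acetyl-CoA through the mevalonate pathway. When membrane sterol runs low, SCAP escorts the transcription factor SREBP2 (encoded by Srebf2) from the endoplasmic reticulum to the Golgi, where proteases release its active part, which switches on nearly every enzyme of the pathway. When sterol is plentiful, INSIG proteins hold SCAP back, so the enzyme genes usually fall and rise together. Insig1 and Srebf2 are themselves SREBP targets.

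Each value below is the signal of a probe set, read as log2, relative to its own median over the arrays of that tissue. The deposited values were centred in this way. A value of 0.5 thus means that an array lay that far above the tissue's middle array for that gene. Levels cannot be compared between genes or between tissues, and it cannot be seen whether a gene was above background. The defining markers of aorta and of monocytes could likewise not be checked for presence. In bulk samples such as these, fewer cells of a type and less RNA per cell cannot be told apart. Ltbr itself averaged -0.97 ± 0.34 in double-deficient aorta and 0.68 ± 0.16 in ApoE-deficient aorta (SD, n = 4 each), with every double-deficient array below every ApoE-deficient one. In CD115+ cells it averaged -0.38 ± 0.28 in double-deficient preparations and 0.34 ± 0.25 in ApoE-deficient ones (SD, n = 3 each), again without overlap. The limma adjusted p for Ltbr was 0.0679 in aorta and 0.976 in CD115+ cells.

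RefSeq promoter windows (mouse build GRCm38.p6) of 250 bases upstream of the transcript start were matched by symbol to 7 of the 8 listed genes, in 9 windows, since Dhcr7 has 3. Sqle had no match. The windows of 5 measured genes follow: Hmgcs1, Srebf2 and Insig1 because a sterol motif was found in them, and Cyp51 and Lss because their signals ran close together across aortas, as described further on. Each runs 5′ to 3′ along the gene's own strand. Capitals mark matches to TCACNCCA or CACNCCAC (overlapping stretches of a sterol regulatory element as known from SREBP-bound promoters), and to CCAAT, a box bound by NF-Y, a factor that works beside SREBPs.
Hmgcs1, chr13:119690101-119690350, plus strand: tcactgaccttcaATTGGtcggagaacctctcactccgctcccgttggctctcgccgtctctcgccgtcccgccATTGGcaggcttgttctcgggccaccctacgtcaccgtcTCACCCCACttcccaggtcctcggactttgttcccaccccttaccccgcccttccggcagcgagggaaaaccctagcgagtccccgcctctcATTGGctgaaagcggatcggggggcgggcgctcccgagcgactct
Srebf2, chr15:82147019-82147268, plus strand: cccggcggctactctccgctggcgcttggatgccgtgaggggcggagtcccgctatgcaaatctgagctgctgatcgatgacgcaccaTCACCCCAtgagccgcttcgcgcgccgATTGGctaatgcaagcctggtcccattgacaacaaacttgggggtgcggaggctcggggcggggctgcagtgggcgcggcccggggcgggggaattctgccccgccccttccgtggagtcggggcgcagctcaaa
Insig1, chr5:28071162-28071411, plus strand: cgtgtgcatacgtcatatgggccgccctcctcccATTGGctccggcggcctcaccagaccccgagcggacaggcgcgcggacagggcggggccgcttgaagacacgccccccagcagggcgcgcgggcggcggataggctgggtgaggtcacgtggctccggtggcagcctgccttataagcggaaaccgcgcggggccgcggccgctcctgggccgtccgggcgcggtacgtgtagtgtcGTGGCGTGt
Cyp51, chr5:4104698-4104947, minus strand: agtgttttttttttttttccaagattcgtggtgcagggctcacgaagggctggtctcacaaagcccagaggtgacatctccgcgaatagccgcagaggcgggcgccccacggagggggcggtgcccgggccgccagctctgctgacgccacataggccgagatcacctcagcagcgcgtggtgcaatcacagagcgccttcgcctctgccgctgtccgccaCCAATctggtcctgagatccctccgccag
Lss, chr10:76531355-76531604, plus strand: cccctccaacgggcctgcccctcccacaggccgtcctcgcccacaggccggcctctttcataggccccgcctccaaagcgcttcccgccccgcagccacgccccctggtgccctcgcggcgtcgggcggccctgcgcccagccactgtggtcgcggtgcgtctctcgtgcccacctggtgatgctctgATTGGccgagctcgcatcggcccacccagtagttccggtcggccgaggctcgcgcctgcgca
Both strands were searched, and the letters were set with these sequences in view. TCACNCCA occurred in the Hmgcs1 window, at -137 to -130 from the start, and in the Srebf2 window, at -162 to -155. That was 2 of the 9 windows, while 3.67% of all 32851 RefSeq windows of the same length held it. CACNCCAC was found in Hmgcs1, at -136 to -129, where it overlaps the match above, and on the opposite strand of Insig1, at -9 to -2. These were again 2 of the 9 windows, against 5.29% of all windows. A CCAAT box stood in 7 of the 9 windows and in 33.8% of all. Cyp51 and Lss showed a CCAAT box and no match to TCACNCCA or CACNCCAC in this stretch. Other forms of a sterol element were not searched, so their absence is not shown. A match is a string of letters and does not show binding.

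In aorta, none of the 7 measured genes passed the test between double-deficient and ApoE-deficient mice. Their differences ran from -0.16 for Srebf2 to 0.61 for Cyp51 on the log2 scale, 4 of them positive and 3 negative, with a median of 0.14 beside a median of 0.01 over all 22180 genes, of which 52.8% were positive. That median turned to -0.03 without ApoE-deficient replicate 1 and to -0.04 without replicate 2, and was 0.33 without replicate 4. With limma, none of the 7 had a Benjamini-Hochberg adjusted p under 0.05, none an unadjusted p under 0.05, and none had groups that did not overlap. Over all genes tested, 0.00451% (1 gene) passed the adjusted threshold, 7.72% had an unadjusted p under 0.05 and 4.3% had groups without overlap. The plot of the 7 genes by aorta shows how far the arrays of a genotype lay from each other.

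**Figure D1:**
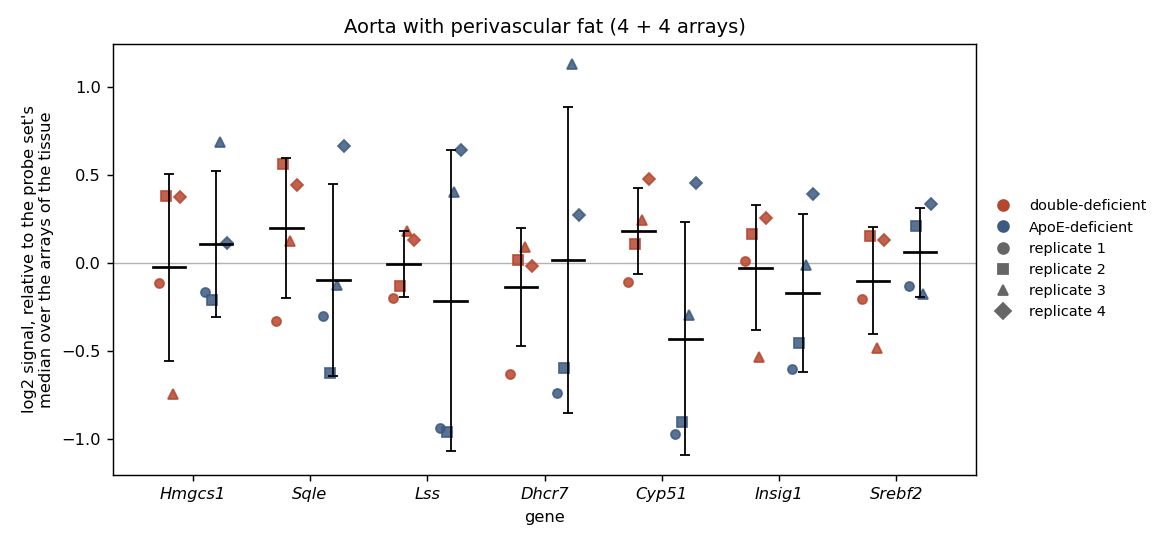
The log2 signal of each measured gene (horizontal axis) in aorta, relative to its median over the 8 aorta arrays (vertical axis). Points are arrays, red for double-deficient and blue for ApoE-deficient, with shapes for replicate numbers; bars are the mean and SD of 4 arrays. The groups overlap for every gene, and ApoE-deficient replicates 1 and 2 are the lowest arrays of Lss and Cyp51.

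Cyp51, the lanosterol demethylase, showed the largest aortic difference of the set. Its values were -0.11, 0.11, 0.24 and 0.48 in the double-deficient aortas of replicates 1 to 4, against -0.97, -0.90, -0.30 and 0.45 in the ApoE-deficient ones. Replicates 1 and 2 of the ApoE-deficient group were the low ones and its replicate 4 lay just below the top of the double-deficient group, so the groups overlapped. The signal was 1.53-fold higher in double-deficient aorta (log2 difference 0.61, SE 0.31), with a 95% interval from 0.93-fold to 2.52-fold. Its limma adjusted p was 0.693, and an exact two-sided permutation test of the 4 against 4 arrays gave p = 0.171.

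Lss, which closes squalene epoxide into lanosterol, the first sterol of the pathway, was spread much more widely in 1 group than in the other. It stood at -0.20, -0.13, 0.18 and 0.13 in double-deficient aortas 1 to 4, against -0.94, -0.96, 0.40 and 0.64 in ApoE-deficient aortas 1 to 4. The double-deficient values lay wholly inside the range of the ApoE-deficient ones. The SD was 0.19 in double-deficient and 0.85 in ApoE-deficient aorta (n = 4 each), and the difference of the means was 0.21 (SE 0.39, adjusted p = 0.937 with limma).

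Dhcr7, which makes the last reduction to cholesterol from 7-dehydrocholesterol, also the precursor of vitamin D, had the widest spread of the set. The double-deficient aortas gave -0.63, 0.02, 0.09 and -0.02, and the ApoE-deficient aortas -0.74, -0.60, 1.13 and 0.27. Replicate 1 was the low array in the double-deficient group, while replicates 1 and 2 were low and replicate 3 high in the ApoE-deficient group. The SD was 0.33 in double-deficient and 0.87 in ApoE-deficient aorta, and the difference was -0.15 (SE 0.41, adjusted p = 0.963 with limma).

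Sqle, the squalene epoxidase that takes the first oxygen-dependent step towards sterols, had -0.33, 0.56, 0.12 and 0.44 in double-deficient aortas, against -0.30, -0.62, -0.12 and 0.66 in ApoE-deficient ones. The highest array and the lowest array were both ApoE-deficient. The difference was 0.30 (SE 0.30, adjusted p = 0.873 with limma), with a 95% interval from -0.40 to 0.99.

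Hmgcs1, the cytosolic HMG-CoA synthase at the entry of the pathway, gave -0.11, 0.38, -0.75 and 0.38 in double-deficient aortas, against -0.17, -0.21, 0.69 and 0.11 in ApoE-deficient aortas. Replicate 3 was the lowest double-deficient array and the highest ApoE-deficient one. Here the double-deficient group was the more scattered, with an SD of 0.53 against 0.41 (n = 4 each). The difference of -0.13 (SE 0.30) had an adjusted p of 0.951 with limma.

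Of the control genes, Insig1, whose product retains SCAP and which is itself raised by SREBP, had 0.01, 0.16, -0.54 and 0.25 in double-deficient aortas and -0.60, -0.45, -0.01 and 0.39 in ApoE-deficient aortas. The difference was 0.14 (SE 0.25, adjusted p = 0.935 with limma). Srebf2 had -0.21, 0.15, -0.49 and 0.13 in double-deficient aortas and -0.13, 0.21, -0.18 and 0.34 in ApoE-deficient ones, a difference of -0.16 (SE 0.18, adjusted p = 0.888 with limma). Both genes had overlapping groups. The 95% interval of Srebf2, from -0.58 to 0.26, is the narrowest of the 7 in aorta, and that of Dhcr7, from -1.10 to 0.79, the widest.

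What the aortas did show was spread among mice of 1 genotype, shared by several genes. The mean of the 7 genes was -0.22, 0.18, -0.16 and 0.26 in double-deficient aortas 1 to 4, against -0.55, -0.50, 0.23 and 0.41 in ApoE-deficient aortas 1 to 4. ApoE-deficient replicate 1 had 7 of the 7 genes below 0 and replicate 2 had 6 of 7, while replicate 4 had 7 of 7 above 0. The 2 lowest arrays and the highest array thus all belonged to the ApoE-deficient group. Within that group the SD of Dhcr7 exceeded that of 98.2% of all genes, and the share was 98.1% for Lss, 96.2% for Cyp51, 93.5% for Sqle and 67.4% for Srebf2. Within the double-deficient group the shares were 83.4% for Dhcr7, 56.7% for Lss, 70.1% for Cyp51, 88.9% for Sqle and 79.7% for Srebf2, and Hmgcs1 had the highest, 94.9%. The median SD of all genes was 0.161 in double-deficient and 0.175 in ApoE-deficient aorta. Whether the spread differed between the genotypes was not tested.

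Across the 8 aorta arrays, 19 of the 21 pairs of measured genes had a positive Pearson correlation, with a median r of 0.46 and a range from -0.05 to 0.85. These are descriptions over the same 8 arrays, amplified by 1 protocol, and they carry no test. Sqle and Cyp51 were the closest pair (r = 0.85), followed by Lss and Cyp51 (r = 0.84) and Lss and Dhcr7 (r = 0.79). Lss had the highest median correlation with the other 6 genes, 0.70, and Srebf2 the lowest, 0.22. With each array taken as a deviation from its genotype's mean, 20 of the 21 pairs were positive, with a median r of 0.55. Positive pairs thus remained after the genotype means were removed, with both genotypes pooled. Correlations within 1 genotype alone were not computed. Srebf2 was the gene least like the others.

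Other enzymes of the pathway lay high and low on the same aortas. Of 16 listed, 14 were measured, and their mean was -0.15, 0.07, -0.14 and 0.08 in double-deficient aortas 1 to 4, against -0.45, -0.39, 0.17 and 0.37 in ApoE-deficient ones. Over the 8 arrays this mean had r = 0.98 and Spearman's rho = 0.98 with the mean of the 7 genes, and r = 0.95 over the 6 arrays left after removing ApoE-deficient replicates 1 and 2, the farthest from the median. Sc5d, the sterol desaturase just before Dhcr7, had r = 0.95 with the mean of the 7. Erg28 had 0.92, Pmvk (phosphomevalonate kinase) 0.92, Nsdhl (a sterol dehydrogenase) 0.92 and Fdps (farnesyl diphosphate synthase) 0.88. Among the other positive ones r was as low as 0.50 for Mvk and 0.32 for Ggps1. In contrast, Ebp, a sterol isomerase, had r = -0.55, and Lbr, a nuclear envelope protein with sterol reductase activity, -0.57. The mean of list genes plotted by array shows this shared order.

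**Figure D2:**
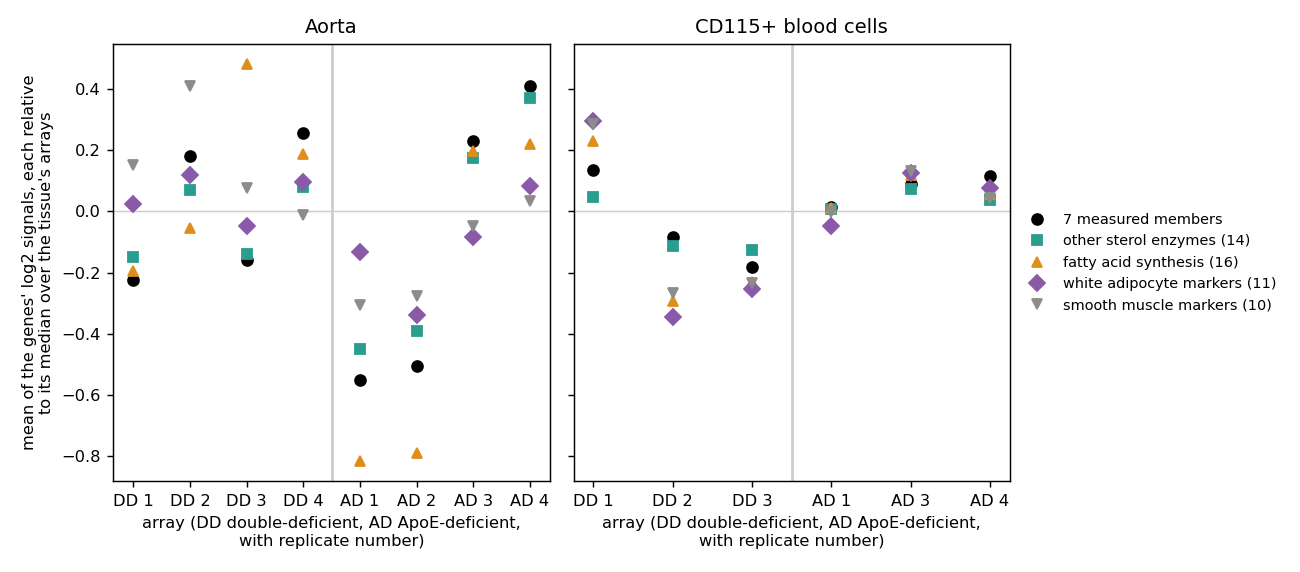
Mean log2 signal over the genes of a list (vertical axis), each gene relative to its median over the arrays of the tissue, on each array (horizontal axis: DD double-deficient, AD ApoE-deficient, with replicate number), in aorta at left and CD115+ cells at right. In aorta the 7 genes and the 14 other sterol enzymes are both lowest on AD 1 and AD 2 and highest on AD 4; in CD115+ cells all 5 lists are below 0 on DD 2 and DD 3.

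Between genotypes, 9 of the 14 other enzymes had a positive aortic difference and 5 a negative one, with a median of 0.11, and none had a limma adjusted or unadjusted p under 0.05. The differences of smallest p were those of Lbr, at -0.52 (SE 0.25, limma adjusted p = 0.664), and Ebp, at -0.48 (SE 0.23, limma adjusted p = 0.672). Of 9 other genes of SREBP control, 6 were measured and 5 were positive in aorta, with a median of 0.10. None of these 6 passed at either threshold. Srebf1, which encodes the sister factor that favours fatty acid genes, had a difference of 0.38 (SE 0.23, adjusted p = 0.739), and Scap one of 0.10 (SE 0.10, adjusted p = 0.869).

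Lists of cell types and of other lipid genes varied over the same aortas, in part in the same order. White adipocyte markers, 11 of 12 measured, had list means from -0.05 to 0.12 in double-deficient and from -0.34 to 0.08 in ApoE-deficient aorta, and their mean had r = 0.75 with that of the 7 genes, or 0.39 without ApoE-deficient replicates 1 and 2. Brown adipocyte markers, 8 of 9 measured, had r = 0.71, or 0.68 without those 2 arrays. Smooth muscle markers, 10 of 10 measured, were lowest on ApoE-deficient replicates 1 and 2 too, at -0.31 and -0.28. Their r was 0.57, or -0.21 without those 2 arrays. B cell markers, 8 of 9 measured, had list means from -0.50 to -0.13 in double-deficient aorta, against 2.30 and 2.36 in ApoE-deficient replicates 1 and 2 and -0.18 and 1.497 in replicates 3 and 4, with r = -0.53, or 0.59 without replicates 1 and 2. The 2 aortas lowest for the cholesterol genes were thus the 2 highest for B cell markers, while ApoE-deficient replicate 4 was high for the cholesterol genes and the third highest for B cell markers. T cell markers (9 of 10 measured, r = -0.49) and proliferation genes (11 of 12, r = -0.70) were highest on the same 2 aortas too. T cell means were 0.96 and 1.10 in ApoE-deficient replicates 1 and 2, and at most -0.20 in double-deficient aorta. Proliferation means were 0.65 and 0.83 in those replicates, and at most 0.15 in double-deficient aorta. Without those 2 aortas r was 0.42 for T cell markers and 0.11 for proliferation genes. Monocyte and neutrophil markers, 10 of 10 measured each, had r = -0.69 and r = -0.68, or -0.565 and -0.38 without those 2 aortas. Skeletal muscle markers, 10 of 10 measured, ran from -1.36 to 1.29 in double-deficient and from -1.36 to 2.04 in ApoE-deficient aorta. Their r was 0.32, or 0.67 without those 2 aortas. The part of fat, muscle or immune cells in the values of the 7 genes was not tested.

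By Pearson correlation with the mean of the 7 genes over the 8 aortas, the most similar named genes outside the list were Cyp2c55 (r = 0.973), Prpf18 (0.972), Rab1b (0.972), Sgtb (0.967) and Dynlt3 (0.964). In all, 98 of 22173 genes (0.442%) reached r of 0.9 or more.

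In CD115+ blood cells the 7 differences were small, and none passed the adjusted test. All 7 were negative, from -0.22 for Lss to -0.01 for Cyp51, with a median of -0.09 beside -0.01 over all 22180 genes, of which 55.3% were negative. With limma, none of the 7 had an adjusted p under 0.05, where the share of all genes was 0.0%, and 1 of the 7, Sqle, had an unadjusted p under 0.05, against 4.39% of all genes. Sqle was also the single gene of the 7 whose groups did not overlap, against 9.16% of all genes. The plot of values by CD115+ preparation shows the narrower scale of these arrays.

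**Figure D3:**
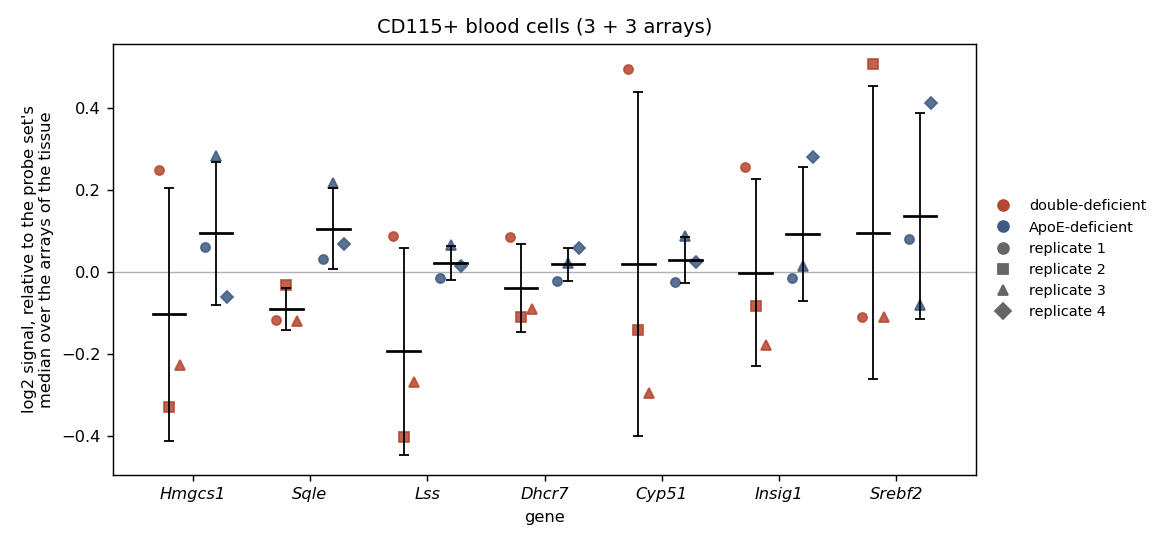
The log2 signal of each measured gene (horizontal axis) in CD115+ blood cells, relative to its median over the 6 CD115+ arrays (vertical axis). Points are preparations, red for double-deficient and blue for ApoE-deficient, with shapes for replicate numbers; bars are the mean and SD of 3. Sqle is the gene whose groups are apart, by a small distance, and double-deficient replicate 1 lies at or above 0 for Hmgcs1, Lss, Dhcr7, Cyp51 and Insig1.

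Sqle was at -0.12, -0.03 and -0.12 in double-deficient replicates 1 to 3, against 0.03, 0.22 and 0.07 in ApoE-deficient replicates 1, 3 and 4. The gap between the nearest arrays, double-deficient replicate 2 and ApoE-deficient replicate 1, was small. The double-deficient signal was 0.873 times the ApoE-deficient one (log2 difference -0.20, SE 0.07). Its unadjusted limma p was 0.0275 and its adjusted p 0.976, and the exact two-sided permutation test gave p = 0.1, the smallest possible with 3 against 3. The unadjusted p was above 0.05 without double-deficient replicate 1 or 3, without ApoE-deficient replicate 3, and without the pooled preparations.

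Lss had 0.09, -0.40 and -0.27 in double-deficient preparations, against -0.02, 0.07 and 0.02 in ApoE-deficient ones, a difference of -0.22 (SE 0.13, adjusted p = 0.976 with limma). Double-deficient replicate 1 lay above all 3 ApoE-deficient preparations and the other two lay below them. Cyp51 showed the same order, with 0.50, -0.14 and -0.29 in double-deficient cells, against -0.02, 0.09 and 0.02 in ApoE-deficient cells, and a difference of -0.01 (SE 0.21, adjusted p = 0.998).

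Hmgcs1 gave 0.25, -0.33 and -0.23 in double-deficient cells, against 0.06, 0.28 and -0.06 in ApoE-deficient cells, a difference of -0.20 (SE 0.17). Dhcr7 gave 0.09, -0.11 and -0.09 in double-deficient cells, against -0.02, 0.02 and 0.06 in ApoE-deficient cells, a difference of -0.06 (SE 0.07). For both enzymes double-deficient replicate 1 was the high preparation of its group and the groups overlapped. Insig1, the sterol sensor partner, stood at 0.26, -0.08 and -0.18 in double-deficient cells and at -0.01, 0.01 and 0.28 in ApoE-deficient cells. Srebf2 differed from the enzymes in its order, with -0.11, 0.51 and -0.11 in double-deficient cells and 0.08, -0.08 and 0.41 in ApoE-deficient cells, so that double-deficient replicate 2 was highest. The differences of these last genes were -0.09 (SE 0.14) for Insig1 and -0.04 (SE 0.21) for Srebf2, and the limma adjusted p of all 4 lay between 0.976 and 0.995.

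The mean of the 7 genes was 0.14, -0.08 and -0.18 in double-deficient preparations 1 to 3, against 0.01, 0.09 and 0.11 in ApoE-deficient preparations 1, 3 and 4. The groups overlapped, because double-deficient replicate 1 was the highest of all 6. Without that preparation 3 of the 7 genes, Hmgcs1, Lss and Cyp51, had an unadjusted limma p under 0.05, where 16.2% of all genes did, and their adjusted p were 0.213, 0.113 and 0.202. Without it the median difference of the 7 genes was -0.22, more than 1.5 times its value with all arrays, and without the 2 pooled ApoE-deficient preparations it was -0.02. Among the 21 pairs of genes 17 had a positive r over the 6 arrays, with a median of 0.43, and 13 were positive as deviations from the group means, with a median of 0.13.

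Lists of white adipocyte and smooth muscle markers lay high and low on the same preparations. White adipocyte markers, 11 measured, had list means of 0.29, -0.35 and -0.25 in double-deficient preparations, against -0.05, 0.12 and 0.08 in ApoE-deficient ones. Smooth muscle markers, 10 of 10 measured, had 0.28, -0.27 and -0.23 in double-deficient preparations, against -0.00, 0.13 and 0.04 in ApoE-deficient ones. All 11 adipocyte markers and all 10 smooth muscle markers had negative differences, with medians of -0.16 and -0.14, both farther from 0 than that of the 7 cholesterol genes, and none had an unadjusted p under 0.05. Over the 6 arrays the mean of the 7 genes had r = 0.90 with the adipocyte list, r = 0.91 with the smooth muscle list and r = -0.84 with the B cell list, which stood at -0.29, 1.92 and 1.08 in the double-deficient group, against 0.29, -0.88 and -0.82 in the ApoE-deficient group. Monocyte markers, 10 of 10 measured, were at -0.69, -0.11 and 0.75 in double-deficient preparations 1 to 3. The ApoE-deficient ones were at 0.34, -0.17 and 0.11. The preparation highest for the cholesterol genes was thus the lowest for this list mean (r = -0.73). The genotype differences of the monocyte markers were mixed, with 6 positive and 4 negative. Macrophage markers, 10 of 10 measured, went the other way over the arrays (r = 0.80). Platelet markers, 7 of 8 measured, reached 1.64 on double-deficient replicate 2, and their other 5 means ran from -0.65 to 0.34. The part of these lists in the values of the cholesterol genes was not tested.

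The other sterol enzymes had a median CD115+ difference of -0.13, with 3 of 14 positive and 11 negative. Of these, 1 had an unadjusted p under 0.05, Ebp, at -0.27 (SE 0.10, adjusted p = 0.976 with limma), while 4.39% of all genes did. Of the 6 other SREBP control genes 5 were positive, with a median of 0.03. Mbtps2, the Golgi protease that makes the second cut to free SREBPs, averaged 0.21 ± 0.10 in double-deficient and -0.21 ± 0.11 in ApoE-deficient cells (SD, n = 3 each). Its difference was 0.41 (SE 0.08), with a limma unadjusted p of 0.0024 and an adjusted p of 0.976, and its groups did not overlap. An unadjusted p under 0.05 was found for 4.39% of all genes and groups without overlap for 9.16%.

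The 5 named genes outside the list that most resembled the mean of the 7 over the 6 CD115+ arrays were Cped1 (r = 0.998), Lncbate1 (0.997), Cyb5r2 (0.997), Fbxo10 (0.994) and Mag (0.991). In this tissue 759 genes (3.42%) had r of 0.9 or more.

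For none of the 7 genes did the genotype difference in aorta and that in CD115+ cells stand apart beyond the error. The aortic difference minus the CD115+ difference was 0.62 (SE 0.43, adjusted p = 0.853) for Cyp51, 0.49 (SE 0.37, adjusted p = 0.877) for Sqle, 0.43 for Lss, 0.24 for Insig1, 0.07 for Hmgcs1, -0.09 for Dhcr7 and -0.12 for Srebf2, from a limma fit of all 14 arrays. No gene of the 7 had an adjusted or an unadjusted p under 0.05, where 0.0% and 6.9% of all genes did. Nothing says whether the aortas and blood preparations of a number came from the same mouse, so they were treated as separate samples. The plot of differences with intervals sets the tissues side by side.

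**Figure D4:**
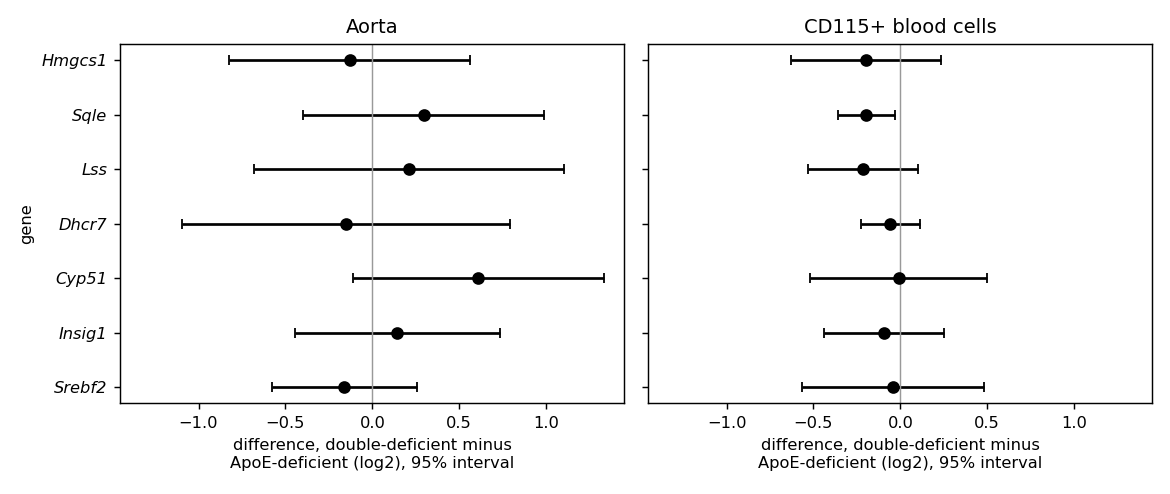
Difference in log2 signal, double-deficient minus ApoE-deficient (horizontal axis), for each measured gene (vertical axis) in aorta at left and CD115+ blood cells at right. Points are limma estimates and bars their 95% intervals. Every aortic interval includes 0, and in CD115+ cells the interval of Sqle alone does not, before adjustment for the number of genes tested.

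The intervals, which are not adjusted for the number of genes tested, give the sizes of difference that these arrays allow for each gene. In aorta, with 4 mice a group, the interval of Cyp51 reached 2.52-fold higher in double-deficient mice and that of Dhcr7 reached 2.14-fold lower. Differences up to these sizes are thus not excluded for those genes. The adjusted test could miss larger differences. Ltbr, the deleted gene, was 3.12-fold lower in double-deficient aorta with groups that did not overlap. Its limma adjusted p of 0.0679 was still above the threshold of 0.05. In CD115+ cells the intervals of Sqle and Dhcr7 stayed between 1.28-fold lower and 1.08-fold higher, and the other 5 genes reached at most 1.54-fold lower or 1.41-fold higher. The number of arrays limits this precision.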

How the data were processed

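RNA from 8 aortas and 6 CD115+ preparations (1 ng each) was amplified to cDNA and labelled with biotin for 1-colour arrays, per the labels' protocols. The authors deposited log2 values for 33793 probe sets on 14 arrays. The log base was read as 2, which no source states; how arrays were normalized and probes summarised: not given in the sources used here. Each of the 33793 probe sets had a median of 0 within 1e-06 in aorta and in CD115+ cells, so values were centred per tissue; the direction was read as signal, with double-deficient minus ApoE-deficient differences. Depth, detection and background are unknown.

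A platform table gave 23521 probe sets 1 symbol, 1814 several and 8458 none; the first kind was averaged into 22180 genes, unfiltered. Array groups came from the titles. Genes were fitted within each tissue with limma 3.58.1 (lmFit, eBayes; R 4.3.3); p-values were adjusted by Benjamini-Hochberg over all genes, with a threshold of 0.05; all 14 arrays were fitted together to compare tissues. Exact permutation tests used SciPy 1.17.1. Scripts were tested on simulated data. No 2 arrays held identical values. P-values measure the spread between preparations, which may be partly technical.

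All measured members were named. Of other lists, the text names the 4 genes of smallest p per tissue, or any gene for sterol enzymes and SREBP control, and Ltbr; similar genes were the 5 of highest r, leaving out gene models, small RNAs, chemoreceptors and pseudogenes. The members and lists were chosen with earlier results of these data known. Alternatives were the probe set of largest SD, array median and quantile scaling, a replicate block, robust and weighted fits, 1 fit of all arrays, leaving out the pooled preparations and leaving out each replicate.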

Additional observations from a re-analysis of the deposited data

Results flagged for a closer look

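In aorta, Dhcr7 stood at -0.6313 in double-deficient replicate 1, against 0.02, 0.09 and -0.02 in the other 3 double-deficient aortas. Its gap to the nearest of these, as a share of the group's range, exceeded 0.829, the critical value of Dixon's test for 4 samples. Replicate 1 was the single such sample in 14 groups of 4 aortas examined (7 genes in each genotype), and chance flags about 1 group in 20.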

How the results depend on the processing

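No member passed the adjusted threshold under any alternative run in aorta, in CD115+ cells or between tissues, with smallest adjusted p of 0.457, 0.113 and 0.495. The count of genes passing in aorta, 1, fell to 0 with the probe set of largest SD, with robust eBayes and with array weights, reached 19 with all 14 arrays in 1 fit, and ranged from 0 to 74 when a replicate was left out, 74 without ApoE-deficient replicate 3 (5 higher, 69 lower). In CD115+ cells it was 0 throughout. Between tissues it ranged from 0 to 58 when a replicate was left out, 58 without double-deficient CD115+ replicate 1 and 30 without ApoE-deficient aorta replicate 3. The cause was not tested. With the replicate block the aorta count was 1 and the CD115+ count 0. Same-numbered aortas did not deviate together (r of 0.17, -0.15, -0.14 and 0.06), nor did CD115+ preparations (-0.47 and -0.29). So few pairs cannot show whether a number pairs samples.

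The members' median difference in aorta lay between -0.0387 and 0.33 over the fits that left out 1 replicate. In CD115+ cells it lay between -0.2237 (without double-deficient replicate 1) and -0.0314. Small differences changed sign when 1 replicate was left out. In aorta the ranges were -0.27 to 0.11 for Hmgcs1, -0.0387 to 0.49 for Lss, -0.40 to 0.22 for Dhcr7 and -0.0008 to 0.33 for Insig1. In CD115+ cells they were -0.25 to 0.15 for Cyp51 and -0.25 to 0.10 for Srebf2, and between tissues -0.0703 to 0.31 for Hmgcs1, -0.35 to 0.28 for Dhcr7 and -0.26 to 0.0867 for Srebf2. In CD115+ cells Cyp51 also turned to 0.0622 with quantile scaling, 0.0689 with the replicate block and 0.0445 without the pooled preparations, Insig1 to 0.0399 with the block and 0.0131 without the pools, and Srebf2 to 0.0182 with array weights and 0.0162 without the pools. Cyp51, Sqle and Srebf2 in aorta kept their direction under every alternative run, as did Hmgcs1, Sqle, Lss and Dhcr7 in CD115+ cells. Between tissues Sqle, Lss, Cyp51 and Insig1 did so too. The unadjusted p of Sqle in CD115+ cells was above 0.05 in 6 of its 14 alternatives: with the replicate block, with all arrays in 1 fit, without the pools, and without double-deficient replicate 1 or 3 or ApoE-deficient replicate 3. That of Cyp51 in aorta was under 0.05 with the block and without ApoE-deficient replicate 4 (adjusted p = 0.554 and 0.497 with limma), where 8.02% and 7.78% of all genes were.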

Other observations

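Genes of cholesterol transport and storage, 10 of 12 measured, had a median aortic difference of 0.13, with 8 positive and 2 negative, and none passed the limma adjusted threshold. The 4 of smallest p were Lrp1, an endocytic receptor with many ligands, at 0.54 (SE 0.15, adjusted p = 0.466), Vldlr, the very low density lipoprotein receptor, at 0.52 (SE 0.14, adjusted p = 0.467), Lrp8, a related receptor, at -0.31 (SE 0.13, adjusted p = 0.619), and Acat1 at 0.20 (SE 0.09, adjusted p = 0.664). Acat1 encodes a mitochondrial acetyl-CoA acetyltransferase, not the sterol acyltransferase that stores cholesterol, so 1 of the 8 positive genes is no transport or storage gene. In CD115+ cells 2 of the 10 were positive and 8 negative, with a median of -0.15. There Npc2, a lysosomal cholesterol carrier, had -0.31 (SE 0.08), Lrp8 -0.13 (SE 0.05), Lipa, the lysosomal acid lipase, -0.20 (SE 0.12), and Scarb1, a receptor for high density lipoprotein, -0.22 (SE 0.17), each with an adjusted p of 0.976.

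Fatty acid synthesis genes, 16 of 19 measured, had a median aortic difference of 0.50, with 15 positive and 1 negative, and none had an unadjusted p under 0.05. Acaca, acetyl-CoA carboxylase, had 0.53 (SE 0.28, adjusted p = 0.703), Gpam 0.50 (SE 0.27, adjusted p = 0.708), Pnpla3 0.53 (SE 0.29, adjusted p = 0.708) and Fasn, fatty acid synthase, 0.36 (SE 0.20, adjusted p = 0.710). Their list mean was -0.20, -0.06, 0.48 and 0.19 in double-deficient aortas 1 to 4, against -0.82, -0.79, 0.20 and 0.22 in ApoE-deficient aortas 1 to 4, so the same ApoE-deficient replicates 1 and 2 were low. Over the 8 arrays that mean had r = 0.78 with the mean of the 7 cholesterol genes, and r = 0.15 without those 2 aortas. In CD115+ cells 1 of the 16 was positive and 15 were negative, with a median of -0.16. There Thrsp had -0.23 (SE 0.09), Pnpla3 -0.36 (SE 0.20), Acacb -0.26 (SE 0.20) and Acss2 -0.17 (SE 0.14), each with an adjusted p of 0.976 with limma. Thrsp was the single gene of the list with an unadjusted limma p under 0.05 (0.0498), where 4.39% of all genes had one.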
